A study of Rattus norvegicus with 30 samples.

Results

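The muscarinic acetylcholine receptors are encoded by 5 genes, Chrm1 to Chrm5, and all 5 were found by symbol among the 17134 genes measured in rat frontal cortex. Their Ensembl identifiers were ENSRNOG00000018385 for Chrm1, ENSRNOG00000046972 for Chrm2, ENSRNOG00000049410 for Chrm3, ENSRNOG00000017556 for Chrm4 and ENSRNOG00000006397 for Chrm5. Chrm1 to Chrm4 entered as members of the family, whatever their values. Chrm5 was chosen by its normalized counts, because its level was higher in HIP than in WT rats, so its levels are described without a test in every comparison, since each comparison shares rats with that choice. RNA-seq was done in 30 male Sprague Dawley rats on normal diet, 10 in each of 3 groups. WT rats express rat amylin, a hormone that pancreatic β-cells release together with insulin. HIP rats express amyloid-forming human amylin in the pancreas in addition to their own, and AKO rats lack the rat amylin gene. HIP and WT rats were 15–16 months old, and the ages stated for AKO rats in other experiments of the study may not be those of the 10 sequenced here. The HIP rats stand for a pancreatic source of human amylin and carry no transgene directed to the brain. The labels name the tissue frontal cortex, while the text of the study also uses cerebral cortex and hippocampus. The amylin gene itself was not analysed here, so the genotype labels were not checked on it.

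Muscarinic receptors respond to acetylcholine that basal forebrain neurons release widely in cortex. Chrm1, Chrm3 and Chrm5 encode the M1, M3 and M5 receptors, which act through Gq/11 proteins, phospholipase C and closure of M-current potassium channels and so make neurons more excitable. Chrm2 and Chrm4 encode M2 and M4, which act through Gi/o proteins to lower cyclic AMP and open inwardly rectifying potassium channels, and which sit in part on cholinergic terminals as autoreceptors. M1 is a main receptor of cortical pyramidal cells, M4 is prominent in striatal projection neurons, and M5 is best known from midbrain dopamine neurons.

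A few rats carried genes of other tissues, and these rats touch nearly every value of the receptors. Each group held all 8 markers of neocortical excitatory neurons, and in 29 of the rats the mean log2 value of this list lay between 9.99 and 10.9. WT rat 10RT43 was the exception at 6.60. In that rat the summed level of 4 cerebellum markers was 41401, against a WT median of 30.2. HIP rat 10RT46 had a pineal gland sum of 22622 and a choroid plexus sum of 16531, AKO rat 7AKO19 had a choroid plexus sum of 3841, and HIP rat 12RT23 had a cerebellum sum of 4164. Results below are therefore given for all rats and again without WT rat 10RT43, HIP rat 10RT46 and AKO rat 7AKO19. This leaves 27, with 12RT23 still among them. A second pattern, in olfactory bulb markers, split the 27 rats into 17 with a mean log2 value of 2.59–4.52 and 10 with 6.22–9.14, and both sets held rats of every group.

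Chrm5 was a sparse transcript, and its values rested on few reads. In WT rats the normalized count ran from 0 in rat 10RT43 to 13.6 in rat 10RT51, with a median of 4.64. In HIP rats it ran from 6.17 in rat 10RT41 to 17.4 in rat 12RT23, with a median of 10.1. In AKO rats it ran from 3.37 in rat 7AKO28 to 29.2 in rat 7AKO19, with a median of 8.92. All 10 HIP rats lay above the WT median, but only 1 lay above the highest WT rat, so the groups overlapped. The group means were 5.39 ± 4.49 in WT, 11.01 ± 3.16 in HIP and 12.1 ± 8.89 in AKO (SD, n = 10 each). The ratio of means was 2.04 for HIP vs. WT and 2.25 for AKO vs. WT, and the ratio of HIP to AKO was 0.909. The AKO mean thus lay in the range of the HIP rats, with AKO rats 4KAH35 and 7AKO19 at 26.3 and 29.2. The AKO median of 8.92 lay between the WT and HIP medians. Relative to the mean the spread was 83.3% in WT, 28.7% in HIP and 73.4% in AKO rats.

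These normalized counts correspond to 0–18 reads in WT, 5–15 reads in HIP and 3–29 reads in AKO rats, as estimated from the step between low values. More than 3 reads were present in 6 of 10 WT, 10 of 10 HIP and 9 of 10 AKO rats. The groups differed in depth, with median estimated totals of 19.1 M reads in WT, 15.7 M in HIP and 16.1 M in AKO rats. Counting error alone would give an SD of about 2.16 in WT, 3.46 in HIP and 3.56 in AKO rats. A value of 0, as in rat 10RT43, allows up to 3 reads, and at this depth neighbours in the order of the rats could not be separated.

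**Figure D1:**
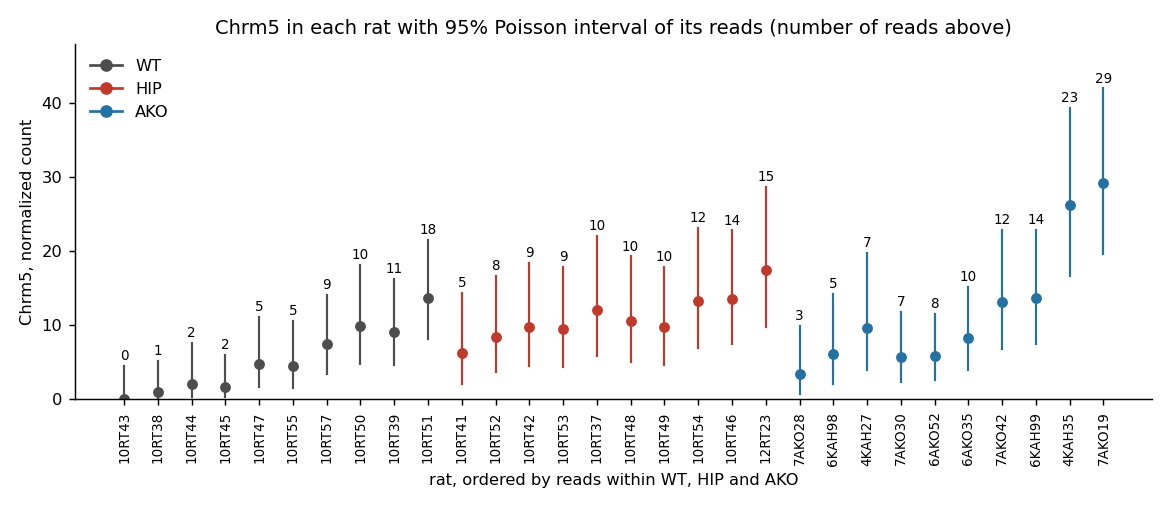
Chrm5 in each of the 30 rats. Points are normalized counts, lines are exact 95% Poisson intervals of the estimated reads scaled to normalized counts, which cover counting error only, and the number above each line is the reads. The intervals of most rats overlap, WT rat 10RT43 is at 0, and AKO rats 4KAH35 and 7AKO19 are the highest at 26.3 and 29.2.

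The rats at the ends of the Chrm5 range were in part those with genes of other tissues. AKO rat 7AKO19, the highest, had the highest choroid plexus list of its group, and WT rat 10RT43, the lowest, was the rat with most cerebellum genes. HIP rat 12RT23, the highest of its group, carried them too. Leaving that rat alone out of the 10 gave a HIP mean of 10.3, and it remains in the values that follow. Without 7AKO19, 10RT43 and HIP rat 10RT46 the means were 5.99 ± 4.31 in WT, 10.7 ± 3.22 in HIP and 10.2 ± 6.94 in AKO (n = 9 each), and the ratio of means was 1.79 for HIP vs. WT and 1.70 for AKO vs. WT. Among the 17 rats with few olfactory bulb transcripts, Chrm5 ran from 0.915 to 9.10 in WT (median 3.29, n = 6), from 6.17 to 17.4 in HIP (median 10.1, n = 6) and from 5.72 to 13.1 in AKO (median 6.07, n = 5). Among the 10 rats with many, it ran from 7.38 to 13.6 in WT (median 9.87, n = 3), from 9.40 to 12.0 in HIP (median 9.69, n = 3) and from 3.37 to 26.3 in AKO (median 10.9, n = 4). The lowest of these WT values came from rats with few olfactory bulb transcripts, and in the other set the WT and HIP medians lay close together. This split was made after the values were seen, the sets are small, and the part of tissue make-up in the Chrm5 difference was not tested.

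**Figure D2:**
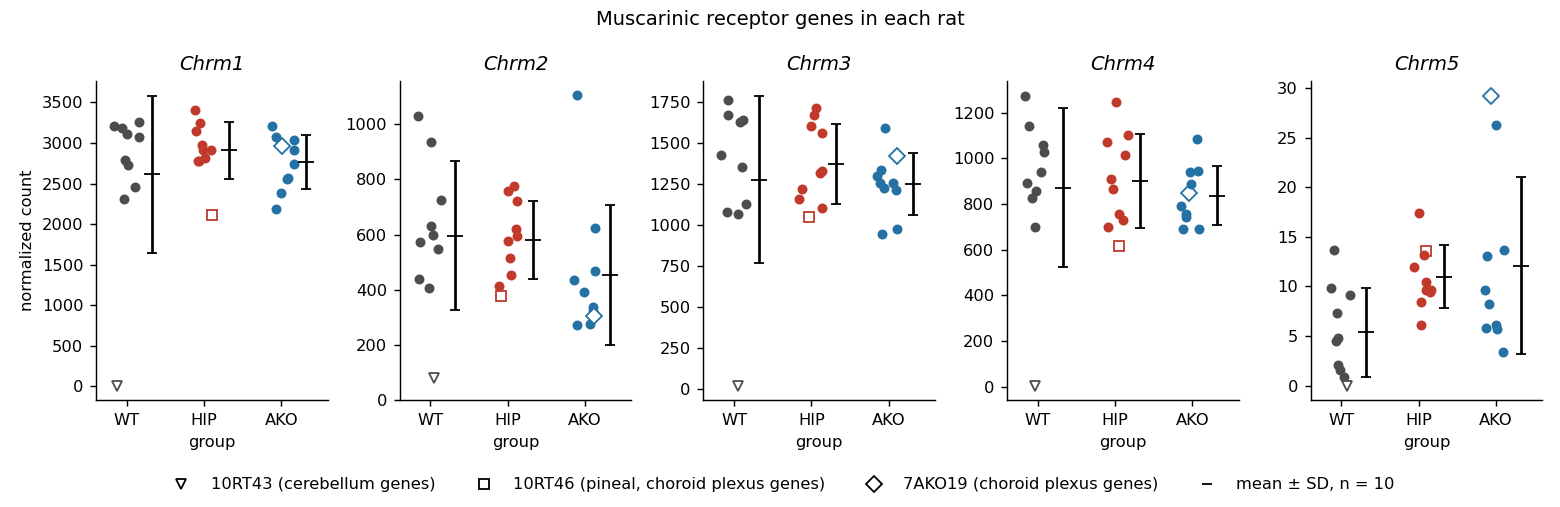
Normalized counts of the 5 receptor genes in each rat, with the mean ± SD of 10 rats beside each group and each gene on its own axis. WT rat 10RT43 lies near 0 for Chrm1, Chrm3, Chrm4 and Chrm5 and at 80.1 for Chrm2. Chrm2 is the gene in which most AKO rats lie low, with 6AKO35 far above them at 1105.

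Chrm1, the M1 receptor gene, was close to level across the groups once the rat with cerebellum genes was set aside. Its normalized count in WT rats ran from 4.78 in rat 10RT43 and 2309 in the next lowest to 3257, with a median of 2934. In HIP rats it ran from 2113 in rat 10RT46 to 3405, with a median of 2910, and in AKO rats from 2189 to 3214, with a median of 2829. All groups overlapped, and 4 of 10 HIP rats lay above the WT median. Over all rats the log2 difference of HIP vs. WT was 0.90 (95% interval -0.84 to 2.63, limma adjusted p = 0.999) and that of AKO vs. WT was 0.83 (-0.89 to 2.55, adjusted p = 0.748). Without the 3 rats the differences were 0.05 (-0.09 to 0.19, adjusted p = 0.966) and -0.08 (-0.26 to 0.10, adjusted p = 0.779). WT rat 10RT43 alone decided the size of the first pair of values, since the difference of HIP vs. WT was 0.0021 when only that rat was left out.

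Chrm3, the M3 receptor gene, showed the same dependence. WT rats ran from 21.5 in rat 10RT43 and 1070 in the next lowest to 1761, with a median of 1393. HIP rats ran from 1052 in rat 10RT46 to 1717, with a median of 1325, and AKO rats from 944 to 1591, with a median of 1256. The log2 difference of HIP vs. WT was 0.55 (-0.62 to 1.72, adjusted p = 0.999) over all rats and -0.0011 (-0.24 to 0.24, adjusted p = 0.999) without the 3 rats. The log2 difference of AKO vs. WT was 0.43 (-0.73 to 1.59, adjusted p = 0.811) and, without them, -0.19 (-0.43 to 0.05, adjusted p = 0.630). No difference passed the test, and the intervals without the 3 rats bound the HIP vs. WT difference at 0.24 on the log2 scale in either direction.

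Chrm4, the M4 receptor gene of the Gi/o arm, ran in WT rats from 3.59 in rat 10RT43 and 700 in the next lowest to 1275, with a median of 915. The range was 617 to 1246 in HIP rats, with a median of 887, and 689 to 1084 in AKO rats, with a median of 817. HIP vs. WT gave a log2 difference of 0.65 (-0.85 to 2.16, adjusted p = 0.999) over all rats and -0.06 (-0.31 to 0.19, adjusted p = 0.976) without the 3 rats. AKO vs. WT gave 0.57 (-0.92 to 2.05, adjusted p = 0.804) and -0.21 (-0.44 to 0.03, adjusted p = 0.593). The sign of both differences turned when the 3 rats were left out, so no direction can be given for Chrm4.

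Chrm2, the M2 receptor gene, was, of the 4 tested members, the one whose AKO median differed most from those of the other groups. WT rats ran from 80.1 in rat 10RT43 and 405 in the next lowest to 1031 in rat 10RT50, with a median of 585. HIP rats ran from 379 in rat 10RT46 to 776, with a median of 585. AKO rats ran from 272 in rat 6KAH98 to 624 in the second highest rat and 1105 in rat 6AKO35, with a median of 365. All 10 HIP rats lay above the AKO median and 8 of 10 AKO rats lay below the WT median, yet the groups overlapped. The means were 597 ± 269 in WT, 580 ± 141.3 in HIP and 454 ± 253 in AKO (n = 10 each).

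Between HIP and WT rats, Chrm2 gave a log2 difference of 0.15 (-0.52 to 0.81, adjusted p = 0.999), and -0.09 (-0.43 to 0.26, adjusted p = 0.976) without the 3 rats. Against AKO rats, HIP rats gave 0.46 (0.02 to 0.89, unadjusted p = 0.0398), which did not pass limma's adjusted threshold (adjusted p = 0.366). It was 0.47 (0.02 to 0.92, adjusted p = 0.289) without the 3 rats. Leaving out each rat in turn gave 0.39 (without AKO rat 6KAH98) to 0.61 (without AKO rat 6AKO35, unadjusted p = 0.000996, adjusted p = 0.123). With weights for the quality of each rat in limma the difference was 0.56 and passed (adjusted p = 0.0446), the single pass among 444 alternative values of Chrm1 to Chrm4 in the 3 comparisons. In that weighted fit 1143 of all 17092 genes tested passed, against 29 in the fit without weights. AKO vs. WT gave -0.31 (-1.04 to 0.42, adjusted p = 0.778) over all rats and -0.56 (-1.05 to -0.06, adjusted p = 0.492) without the 3 rats. Both comparisons use the same AKO rats, so their low AKO values are 1 observation and not a repeated result.

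The AKO group joins rats of different name series, 6 with AKO and 4 with KAH in the name, and the labels do not say what the names mean. With the 4 KAH rats alone, HIP vs. AKO for Chrm2 was 0.80 (unadjusted p = 0.000706, adjusted p = 0.149). With the 6 others alone, which include rat 6AKO35, it was 0.23 (adjusted p = 0.764). The difference between the series was not tested.

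**Figure D3:**
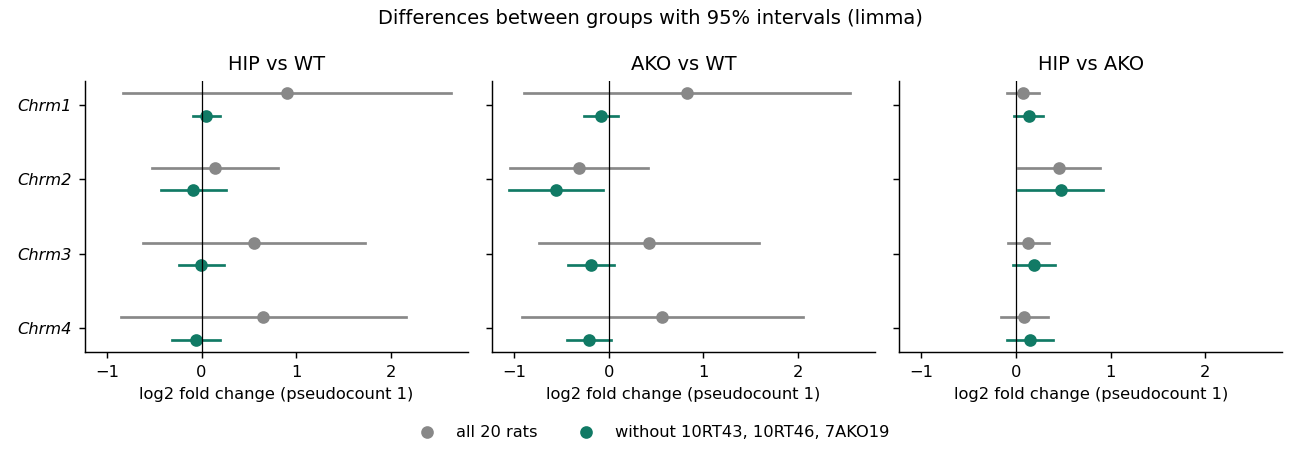
Log2 fold changes of Chrm1 to Chrm4 with 95% limma intervals, for all 20 rats of each comparison and without WT rat 10RT43, HIP rat 10RT46 and AKO rat 7AKO19. The intervals against WT narrow once rat 10RT43 is out, from -0.84 to 2.63 to -0.09 to 0.19 for Chrm1 in HIP vs. WT, and the Chrm2 interval of HIP vs. AKO lies just above 0 in both.

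Counted together, 0 of the 4 tested receptor genes passed an adjusted p of 0.05 in any comparison over all rats. In HIP vs. WT, none of the 4 had an unadjusted p under 0.05 in limma, where 2.57% of all 17085 genes tested did (4.81% without the 3 rats), and 0% of genes passed the adjusted threshold. In AKO vs. WT, none of the 4 did, where 9.34% of genes did and 0.0997% passed the adjusted threshold. In HIP vs. AKO, 1 of 4 did, Chrm2, where 12.7% of genes did and 0.17% passed the adjusted threshold. For the other 3 genes HIP vs. AKO gave log2 differences of 0.07 for Chrm1, 0.13 for Chrm3 and 0.09 for Chrm4, with limma adjusted p between 0.624 and 0.771. For 0 of the 5 members did any pair of groups stand without overlap, as was so for 0% of all genes in HIP vs. WT, 0.0117% in AKO vs. WT and 0.00585% in HIP vs. AKO. Without the 3 rats Chrm2 had an unadjusted p under 0.05 in AKO vs. WT too (0.0286 in limma), where 9.15% of all genes did.

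Variation between rats within the groups was wide, and for Chrm3 and Chrm1 it moved with a list of neocortical markers. Fewer cells of a type and less RNA per cell cannot be told apart in such bulk tissue. Over 25 relations between the 5 receptor genes and 5 marker lists, 8 passed a Benjamini-Hochberg adjusted permutation p of 0.05 for r over 30 rats. Of the 25, 2 passed without the 2 rats farthest from the median of each list, and 6 without the 3 rats. These counts pool rats also for lists that split into clusters, which are taken up by cluster below, and they hold Chrm5 relations with the group levels left in. The clearest relation was that of Chrm3 with the neocortical excitatory list, with Pearson's r = 0.80 and Spearman's rho = 0.82 over 27 rats (permutation p = 1e-05 for each, the smallest that 100000 permutations can give, adjusted p = 0.00025 and 0.000125). It was r = 0.83 without the 2 rats farthest from the median of the list, and r = 0.79 for deviations from the group means. Rats with a lower neocortical list thus had less Chrm3, also once the group means were removed. Chrm3 also ran lower in the 10 rats with many olfactory bulb transcripts, with a median of 1145 against 1562 in the other 17. These sets did not overlap in WT rats (1070–1129 and 1357–1761) or HIP rats (1106–1220 and 1317–1717). In AKO rats they did (944–1301 and 979–1591). The Chrm1 medians of the 10 and 17 rats were 2733 and 3033. The relation to the neocortical list was not tested within these sets.

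Chrm1 followed the same list less closely, with r = 0.65 and rho = 0.47 over 27 rats (permutation p = 0.00029 and 0.0143, adjusted p = 0.00242 and 0.0593). Without the 2 farthest rats r fell to 0.49 (permutation p = 0.0123, adjusted p = 0.0523), so the relation rests in part on those rats. For Chrm4 the relation was r = 0.28 and rho = 0.18 (permutation p = 0.161 and 0.367, adjusted p = 0.288 and 0.510), and for Chrm2 it was r = -0.01 and rho = 0.16 (permutation p = 0.975 and 0.414, adjusted p = 0.975 and 0.545). Over the 30 rats Chrm4 gave r = 0.95 with the list but rho = 0.33 (permutation p = 0.00103 and 0.0801, adjusted p = 0.00858 and 0.200).

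The hippocampal list rose with Chrm2 over 27 rats, with r = 0.55 and rho = 0.39 (permutation p = 0.00357 and 0.0478, adjusted p = 0.0179 and 0.133), and r was 0.42 without the 2 farthest rats (permutation p = 0.0352, adjusted p = 0.126), so that this relation rests in part on those rats. Chrm1 fell with the same list, with r = -0.53 and rho = -0.51 (permutation p = 0.00451 and 0.00653, adjusted p = 0.0188 and 0.0327), and r was -0.59 without the 2 farthest rats (permutation p = 0.0022, adjusted p = 0.0138). For Chrm5, as deviations from the group means, r was 0.60 and rho 0.61 over 30 rats (permutation p = 0.00047 and 0.00049, adjusted p = 0.00294 and 0.00408) and 0.49 and 0.51 over 27 (permutation p = 0.00937 and 0.00706, adjusted p = 0.026 and 0.0353). With group levels left in, r was 0.56 over 30 rats, 0.33 over 27 and 0.39 without the 2 farthest of 30. The last 2 of these r values did not pass the adjusted threshold. Chrm5 was picked from these same counts, so its p-values here are no independent evidence. The 4 measured genes of the list were Prox1, C1ql2 and Dsp, known from dentate granule cells, and Fibcd1, and the part of hippocampal tissue in these values was not tested. The list also ran higher in the 10 rats with many olfactory bulb transcripts, at 5.59 to 6.31, against 4.51 to 5.78 in the other 17. WT rats 10RT50 and 10RT51 and AKO rat 6AKO35, high for Chrm2, held it at 6.31, 6.30 and 6.16. The hippocampal relations were not tested within these sets.

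The olfactory bulb and striatal lists fell into separate clusters of rats, so single relations with them are given within the clusters, 20 in all. Chrm2 rose with the olfactory bulb list among the 10 rats that had many of its transcripts, with r = 0.87 and rho = 0.79 (permutation p = 0.00389 and 0.00834, adjusted p = 0.0389 and 0.0621). WT rats 10RT50 and 10RT51 and AKO rat 6AKO35, at 1031, 934 and 1105, were the 3 highest Chrm2 rats and also the 3 with the highest olfactory bulb list, at 8.94, 9.14 and 8.91. Among the 17 rats with few olfactory bulb transcripts no relation was seen for Chrm2 (r = -0.17, rho = -0.33, permutation p = 0.524 and 0.194, adjusted p = 0.698 and 0.387). In those 17 rats Chrm2 ran from 405 to 725 in WT (median 585, n = 6). The range was 414 to 722 in HIP (median 585, n = 6) and 272 to 624 in AKO (median 322, n = 5). Among the 10 rats with many, the medians were 934 in WT (n = 3), 757 in HIP (n = 3) and 452 in AKO (n = 4). With the olfactory bulb list as a covariate over all rats, HIP vs. AKO for Chrm2 was 0.50 on the log2 scale (limma adjusted p = 0.229). The split was made after the values were seen, and the part of tissue make-up in the Chrm2 difference was not tested.

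For Chrm4 no relation to the striatal list passed the test within its clusters, although M4 is a marker of striatal projection neurons (r = 0.36, rho = 0.30, permutation p = 0.138 and 0.225, adjusted p = 0.337 and 0.408 over the 18 rats with the lower list, and r = -0.43, rho = -0.40, permutation p = 0.244 and 0.290, adjusted p = 0.443 and 0.484 over the other 9). Chrm1 rose with that list in the same 18 rats, with r = 0.72 and rho = 0.73 (permutation p = 0.00086 and 0.00079, adjusted p = 0.0172 and 0.0158). In the other 9 rats it had the opposite sign, at r = -0.28 and rho = -0.23 (permutation p = 0.475 and 0.552, adjusted p = 0.698 and 0.690), and whether the clusters differ was not tested. The 18 rats include 10RT51, 6AKO35 and 10RT50, with Chrm1 at 2309, 2382 and 2458 and the striatal list at 8.34, 8.38 and 8.43. These rats also had high olfactory bulb lists (9.14, 8.91 and 8.94), and the Chrm1 relation was not tested apart from that split. The 9 rats with the higher striatal list held Chrm4 at 700 to 1140, within the range of the other 18, at 689 to 1275.

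**Figure D4:**
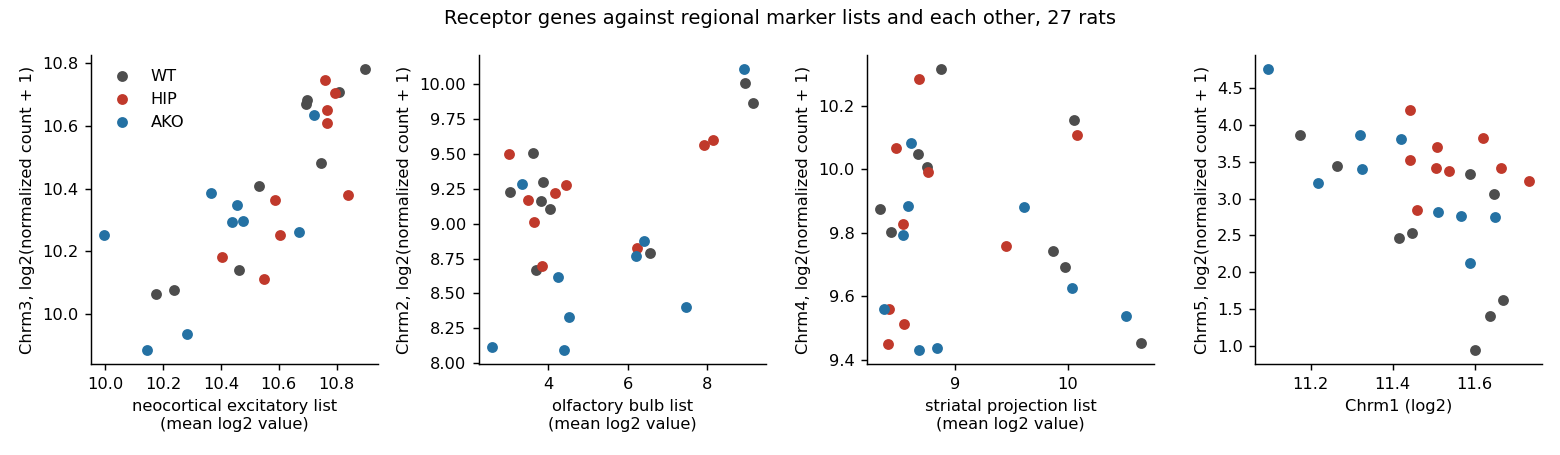
Receptor genes on the log2(normalized count + 1) scale in 27 rats, without WT rat 10RT43, HIP rat 10RT46 and AKO rat 7AKO19, against marker lists (mean log2 value) or each other. Chrm3 rises with the neocortical list (r = 0.80), Chrm2 is highest in 3 rats with an olfactory bulb list of 8.91–9.14, Chrm4 shows no slope over the striatal list, and Chrm5 is lower where Chrm1 is higher (r = -0.53).

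Adjusted permutation p-values of the pairs of receptor genes were computed over all 10 pairs, in 27 rats. Chrm1 rose with Chrm4 (r = 0.59, rho = 0.68, permutation p = 0.00122 and 0.00014, adjusted p = 0.00797 and 0.0014) and with Chrm3 (r = 0.57, rho = 0.51, permutation p = 0.00209 and 0.00768, adjusted p = 0.00797 and 0.0241). Chrm5 moved the other way. Deviations from the group means remove the group levels, but Chrm5 was still picked from these same counts. On these deviations the r of Chrm5 was -0.67 with Chrm1 (rho = -0.66, permutation p = 0.00021 and 0.00031, adjusted p = 0.0021 and 0.0031). With Chrm3 it was -0.62 (rho = -0.61, permutation p = 0.00052 and 0.00111, adjusted p = 0.0026 and 0.00423). Without the 2 rats farthest from the median, the deviations gave r = -0.67 and rho = -0.60 with Chrm1 (permutation p = 0.00024 and 0.00169, adjusted p = 0.0024 and 0.0169) and r = -0.54 and rho = -0.53 with Chrm3 (permutation p = 0.00556 and 0.008, adjusted p = 0.0278 and 0.0267). Over all 30 rats the uncentred Pearson values had the opposite sign, 0.50 for Chrm1 and 0.44 for Chrm3, with rat 10RT43 near 0 in all 3 genes. The pairs were added after the values were seen, share the depth of the library, and for Chrm5 rest on 1–23 reads. Their p-values are thus no independent evidence. Median Chrm5 was 9.78 in the 10 rats with many olfactory bulb transcripts and 6.17 in the other 17. The medians of Chrm1 and Chrm3 ran the other way, at 2733 against 3033 and 1145 against 1562. The pairs were not tested within these sets.

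The genes whose pattern was most like each receptor over 30 rats, by Pearson's r of log2 values, were for Chrm1 Lhx2 (0.99), Mpped1 (0.99) and Enc1 (0.99). For Chrm3 they included Tbr1 (0.99) and Kalrn (0.99), and for Chrm4 they were Chrm1 itself (0.99), Hs3st2 (0.98) and Lhx2 (0.98). Lhx2 and Tbr1 are forebrain transcription factors, and all of these values carry the weight of rat 10RT43. For Chrm2 they were Galntl6 (0.92), Htr1f (0.92), a serotonin receptor gene, and Stxbp6 (0.91), and for Chrm5 Celsr1 (0.77), Swap70 (0.74) and Adamtsl3 (0.73).

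Over the 27 rats none of these names recurred. Chrm3 was most like Ppp3ca (0.95), a catalytic subunit of calcineurin, Cd200r1 (0.95) and Tbc1d30 (0.93). Chrm2 was most like Irs1 (0.91), an insulin receptor substrate, Epb41l3 (0.91) and RGD1304884 (0.90). Chrm4 was most like Nab2 (0.83), a co-regulator of EGR transcription factors, Stk40 (0.77) and Plk3 (0.77), and Chrm1 like Hspa1l (0.85), a heat shock protein gene, Nckipsd (0.84) and Tspan17 (0.82). For Chrm5 they included Txnip (0.74), a thioredoxin-binding protein gene, and Misp (0.73). All named genes are among the top 3 of 13710 to 13712 named genes above a mean of 10, and the values are descriptions.

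The rest of the pathway was described with 66 other genes in 6 lists, of which 59 were in the table. These were 8 genes of acetylcholine supply and breakdown, 11 nicotinic receptor subunits, 13 genes of the Gq/11 arm, 2 M-current channels, 14 genes of the Gi/o arm and 11 receptor regulators. The others were not analysed here. In HIP vs. WT, 0 of 59 had an unadjusted p under 0.05, against 2.57% of all genes. The list medians of the log2 difference lay between -0.06 for the supply and breakdown genes and 0.52 for the M-current channels Kcnq3 and Kcnq5, beside a median of 0.0018 over all genes, and without the 3 rats the M-current median was 0.18.

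In AKO vs. WT, 5 of 59 had an unadjusted p under 0.05, against 9.34% of all genes, and none passed after adjustment. Of the Gi/o arm, Kcnj3, a subunit of the potassium channel that Gi/o-coupled receptors open, had a median of 1606 in AKO and 1978 in WT rats and a log2 difference of -0.39 ± 0.13 (SE, limma adjusted p = 0.346). Adcy1, a calcium-stimulated adenylyl cyclase gene, had a difference of -0.47 ± 0.21 (adjusted p = 0.499), and Kcnj5, another channel subunit, 0.48 ± 0.18 (adjusted p = 0.396). Of the Gq/11 arm, Plcb4, a phospholipase C gene, had -0.55 ± 0.21 (adjusted p = 0.412) and Gna11, which encodes the G11 α-subunit, 0.17 ± 0.08 (adjusted p = 0.4997). Plcb4 was highest in WT rat 10RT43, at 3718 against 2107 in the next rat. Without the 3 rats, 4 of 59 had an unadjusted p under 0.05, and of the 5 named above Kcnj3 alone was still among them (-0.39, adjusted p = 0.400). The others included Plcb1 of the Gq/11 arm (-0.40, adjusted p = 0.406) and the channel subunit gene Kcnj9 (-0.41, adjusted p = 0.523). With sample-quality weights in limma 5 of 59 passed the adjusted threshold, where 857 of all 17058 genes tested did.

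In HIP vs. AKO, 7 of 59 had an unadjusted p under 0.05, against 12.7% of all genes. Of these, 5 were higher and 2 lower in HIP (5.85% and 6.9% of all genes). None passed after adjustment, although 4 of 59 did with sample-quality weights, where 1143 of all 17092 genes tested did. The 5 with the smallest p were Kcnj3, with a log2 difference of 0.43 ± 0.15 (limma adjusted p = 0.255), Adcy1, 0.47 ± 0.17 (adjusted p = 0.263), Kcnq5, 0.35 ± 0.13 (adjusted p = 0.280), Plcb1, 0.40 ± 0.16 (adjusted p = 0.311), and Plcb4, 0.38 ± 0.17 (adjusted p = 0.365). Kcnq5 encodes an M-current channel that M1 signalling closes, and Plcb1 a phospholipase C of the Gq/11 arm. Without the 3 rats 10 of 59 had an unadjusted p under 0.05 and all 10 were higher in HIP, against 16.1% of all genes, of which 8.2% higher. AKO rats are shared with the comparison against WT, so the low Kcnj3 and Adcy1 values there are the same measurements.

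**Figure D5:**
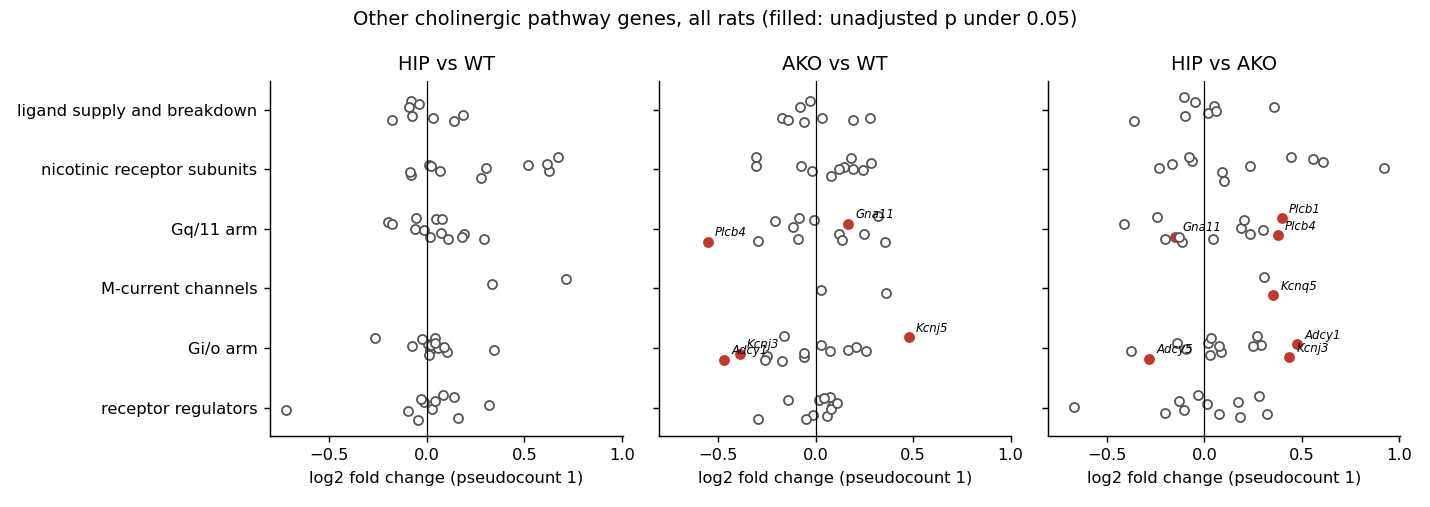
Log2 fold changes of the other cholinergic pathway genes by list in the 3 comparisons over all rats. Filled and named points have an unadjusted limma p under 0.05: 0 of 59 in HIP vs. WT, 5 in AKO vs. WT and 7 in HIP vs. AKO, and none passed after adjustment in these fits.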

How the data were processed

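Frontal cortex RNA was sequenced from 30 rats, 10 per group. The authors aligned reads to rn7, counted them on Ensembl105 genes and normalized the counts in Partek Flow. Per the submitters' processing notes, Partek 10.0.22.0228, Bowtie2, STAR 2.7.8a and DESeq2 were used. The table deposited by the authors holds this signal, normalized counts that are not whole, and was used unchanged. Their totals were 15.4 to 18.0 M per rat. Estimated reads were 12.9 to 23.6 M per rat, from the value of 1 read searched between 0.7 and 1.4. Since 80.3% to 84.1% of values below 100 were whole multiples of it within 0.01, whole reads were not recovered and no count model was run. All 30 Chrm5 values lay within 0.05 of a whole read.

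Groups were compared with limma 3.58.1 in R 4.3.3 (lmFit, eBayes with trend, two-sided) on log2(normalized count + 1), over genes averaging 1 or more in the rats compared, with no covariates. Adjusted p-values are Benjamini-Hochberg values over all genes tested. A fold change on this scale understates the change of low genes. Correlations used two-sided tests with 100000 permutations (Python 3.11.15, numpy 2.4.6). The scripts were tested on simulated data. The members and gene lists were chosen with earlier results of these data known. Named pathway genes were those with an unadjusted p under 0.05, or the 5 with the smallest p where more passed. For each member the 3 genes most alike were named, except some that are not reported here. Levels of different genes were not compared, because no transcript lengths were used here.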

Additional observations from a re-analysis of the deposited data

Results flagged for a closer look

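Of 99 groups of 10 rats examined for a highest or lowest rat far from the others, 22 held such a rat, where chance gives about 1 in 20 groups, or 4.95. WT rat 10RT43 was far below the other WT rats for Chrm1 (4.78), Chrm3 (21.5), Chrm4 (3.59) and the M-current channel gene Kcnq5 (19.1), and far above them for Plcb4 (3718), all as normalized counts. Its mean log2 value was also the lowest for the neocortical (6.60), hippocampal (3.98) and microglia (8.01) lists and the highest for cerebellum (13.1) and choroid plexus (5.03). HIP rat 10RT46 was far below its group for Chrm1 (2113) and far above it for the hippocampal (7.41), pineal (10.3) and choroid plexus (9.09) lists. AKO rat 6AKO35 was far above its group for Chrm2 (1105), and AKO rat 7AKO19 for the choroid plexus list (7.04). HIP rat 12RT23 stood apart for the cerebellum list (9.84), and HIP rat 10RT48 for the microglia list (9.72) and Kcnj5 (80.6). Single rats stood apart for Adcy5 (3228, HIP rat 10RT54), Plcb1 (1685, AKO rat 6KAH98) and Plcb4 (1707, AKO rat 7AKO30).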

How the results depend on the processing

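No paired analysis was possible because the labels give no number that rats of different groups share. Alternatives that combine left-out rats with a marker list, and those with olfactory bulb markers, pairs or choroid plexus, were added after seeing the data. All differences here are on the log2 scale.

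In HIP vs. WT the signs turned in several settings. With the neocortical list as covariate the values were -0.051 for Chrm1, -0.16 for Chrm2, -0.095 for Chrm3 and -0.16 for Chrm4. For Chrm2, Chrm3 and Chrm4 they were -0.060, -0.049 and -0.022 with sample-quality weights, -0.086, -0.0011 and -0.059 without the 3 rats, -0.044, -0.078 and -0.023 without 4 rats (12RT23 too) with the neocortical covariate, and -0.080, -0.0085 and -0.011 with the olfactory bulb covariate. Without the 4 rats and no covariate Chrm2 was -0.094 and Chrm4 -0.011. In AKO vs. WT, Chrm1, Chrm3 and Chrm4 were -0.083, -0.19 and -0.21 without the 3 rats and -0.075, -0.18 and -0.20 with the olfactory bulb covariate besides. Chrm3 and Chrm4 were -0.15 and -0.20 with weights, and -0.028 and -0.14 without the rats and with the neocortical covariate. In HIP vs. AKO the neocortical covariate gave -0.048 for Chrm1, -0.055 for Chrm3 and -0.0093 for Chrm4, -0.026 for Chrm3 without the 4 rats, and the 6 AKO-named rats alone gave -0.00099 for Chrm1. Chrm2 passed with weights (0.56), a setting in which 1143 of 17092 genes passed.

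Leaving out each rat in turn gave, for HIP vs. WT, 0.0021 to 1.02 for Chrm1, -0.15 to 0.26 for Chrm2, -0.042 to 0.66 for Chrm3 and -0.12 to 0.79 for Chrm4. For AKO vs. WT it gave -0.070 to 0.95, -0.61 to -0.20, -0.17 to 0.53 and -0.20 to 0.70, the sign turning without 10RT43 alone. For HIP vs. AKO no left-out rat turned a sign. Genes past the adjusted threshold numbered 10 (without 10RT38 or 7AKO19) to 39 (without 4KAH27) in AKO vs. WT, 17 with all rats. In HIP vs. AKO they numbered 17 (without 10RT53) to 70 (without 10RT46), 29 with all rats. Pathway genes with an unadjusted p under 0.05 numbered 0 to 1 in HIP vs. WT, 3 to 7 in AKO vs. WT and 4 to 11 in HIP vs. AKO. Over all genes tested, 309 to 779, 1311 to 1974 and 1657 to 3005 had such a p in these comparisons.

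Genes past the adjusted threshold in AKO vs. WT and HIP vs. AKO numbered 857 and 1143 with weights, 27 and 56 in a fit of all 30 rats, 68 and 120 with the AKO-named rats, 0 and 3 with the KAH-named, and 6 and 3 without 4 rats and with the neocortical covariate. For AKO vs. WT they were 43 with the neocortical covariate and 31 with the library number as covariate, and for HIP vs. AKO 47 without the 3 rats and 13 without 4. Pathway genes at an unadjusted p under 0.05 are given of 59, with the count over all 16978 to 17103 genes tested in brackets. With weights they numbered 2 (885), 13 (3930) and 19 (4289) in the 3 comparisons. Of these, 5 in AKO vs. WT and 4 in HIP vs. AKO passed the adjusted threshold, beside 857 and 1143 of all genes. Without 4 rats they numbered 2 (906), 10 (1916) and 11 (2710) with the olfactory bulb covariate. The neocortical one there gave 3 (919) in HIP vs. WT and 3 (1343) in AKO vs. WT. Over all rats it gave 8 (2067) in AKO vs. WT and 4 (1442) in HIP vs. AKO. The striatal list gave 5 (1321) in HIP vs. WT, and the fit of 30 rats 3 (2107) in HIP vs. AKO. With AKO-named rats they numbered 3 (1269) in AKO vs. WT and 4 (1910) in HIP vs. AKO. With KAH-named rats they numbered 2 (1793) in AKO vs. WT. Relations with marker lists that passed were 8 of 25, and 4 after quantile normalization, 2 without the 2 farthest rats and 4 without 3 and then 2 rats. The r of Chrm5 turned to -0.53 with Chrm1 and -0.56 with Chrm3 without the 3 rats, to -0.67 and -0.62 as deviations, to -0.51 and -0.43 without 2 more and to -0.67 and -0.54 as deviations there. With choroid plexus it turned to -0.011 without the 2 farthest. The cause of these changes was not tested, beyond the rats left out.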

Other observations

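Chrm5 and the choroid plexus list were set side by side after the values were seen, because AKO rat 7AKO19 was highest in both within its group, so the p-values that follow are no independent evidence. As deviations from the group means, r was 0.22 and rho 0.42 over all 30 rats (permutation p = 0.234 and 0.0222). Over the 27 rats r was 0.56 and rho 0.50 (permutation p = 0.00268 and 0.00879), and without the 2 farthest of them r was 0.49 and rho 0.45 (permutation p = 0.0119 and 0.0253). With group levels left in, r was -0.01 when the 2 rats farthest of the 30 were left out, with WT rat 10RT43 in. At the depth of 0–29 Chrm5 reads per rat, no source of these reads can be named.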
